A study of Rattus norvegicus with 25 samples.

Results

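The genes described here are the glucose transporter gene Slc2a1 (GLUT1), the hexokinase gene Hk2 and 6 genes for enzymes of the lower part of glycolysis and lactate formation: Gapdh, Tpi1, Pgk1, Eno1, Pkm and Ldha. They were taken by their Ensembl gene IDs and not by their values, 8 of the 32883 IDs in the deposited count table: ENSRNOG00000007284 for Slc2a1, ENSRNOG00000006116 for Hk2, ENSRNOG00000018630 for Gapdh, ENSRNOG00000015290 for Tpi1, ENSRNOG00000058249 for Pgk1, ENSRNOG00000017895 for Eno1, ENSRNOG00000011329 for Pkm and ENSRNOG00000013009 for Ldha. The table gives IDs without symbols. All 8 passed the filter on low counts in both cohorts. The series studied Roux-en-Y gastric bypass (RYGB) in the rat, and its title names GLUT1. In this operation food is led from a small stomach pouch straight into a length of jejunum, the alimentary limb, which joins the biliopancreatic limb further down to form the common limb.

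The first cohort held 12 RNA-seq libraries, 3 from each of 4 tissues. The operated rats gave the alimentary limb (RYGB_AL) and the common limb (RYGB_CL), and the sham-operated rats gave jejunum (Sham_JEJU) and ileum (Sham_IL). The labels give no strain, age or time after surgery for it. RYGB_AL and RYGB_CL share the numbers 1-1, 2-3 and 15-29, and the sham groups share 8-15, 14-28 and 15-30. The labels do not say whether a shared number marks the same rat. The OLE cohort came from Otsuka Long-Evans Tokushima Fatty (OLETF) rats, an inbred line prone to obesity and diabetes: intestinal sections after RYGB that the submitters called glucotonic (Glucotonic_OLE, 5 libraries under 4 numbers) or non-glucotonic (Nonglucotonic_OLE, 5 libraries under 4 numbers), and distal intestine after sham surgery (Sham_OLE, 3 libraries). Both RYGB groups of this cohort carry the numbers 13, 16, 18 and 19, and the libraries of number 13 were summed within a group, which leaves 11 samples. How a section was judged glucotonic is not given in the sources used here. All groups share surgery of 1 kind or the other; no rat without an operation is among them.

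Glucose enters cells down its gradient through facilitative carriers. GLUT1 is the carrier of most proliferating and basal tissues, and in the adult small intestine it is known as a minor carrier beside SGLT1 and GLUT2. Hexokinase 2 traps the imported sugar as glucose 6-phosphate, and its message is known to respond to insulin, growth factors and low oxygen. The enzymes further down, from triosephosphate isomerase to pyruvate kinase, yield ATP and pyruvate, and lactate dehydrogenase A turns pyruvate into lactate.

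First-cohort libraries held 23.7 to 49.3 M counts (M for mega) and OLE libraries 18.1 to 25.6 M. In the OLE libraries 2 IDs held 44.6 to 65.9% of all counts, against 0.192 to 1.58% in the first cohort, which left 8.48 to 12.8 M counts for the other IDs. Levels below are CPM, counts divided by the TMM-scaled library size in M, computed within each cohort. They serve to compare a gene between samples, not genes with each other. A difference was called where the Benjamini-Hochberg adjusted p from edgeR's quasi-likelihood test, taken over all IDs tested, was under 0.05. The labels do not say that each sample came from a separate rat, and the tests rest on the spread among the samples as labelled, which may be partly technical. In whole tissue, a change in the share of a cell type and a change in RNA per cell cannot be told apart.

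The promoter windows of Slc2a1, Hk2 and Ldha are shown because Slc2a1 and Hk2 were the genes that differed between the alimentary limb and sham jejunum, whereas Ldha differed between gut segments and was not called in that comparison. Each window is the 250 bases before the transcription start, 5′ to 3′ on the strand of the gene, from RefSeq on build GRCr8. The positions are chr5:138002272-138002521 on the plus strand for Slc2a1, chr4:116841276-116841525 on the minus strand for Hk2 and chr1:106507842-106508091 on the plus strand for Ldha. Capitals mark ACGTG and GCGTG on either strand (CACGT and CACGC where the other strand reads them), the core letters of the element bound by hypoxia-inducible factors.
Slc2a1: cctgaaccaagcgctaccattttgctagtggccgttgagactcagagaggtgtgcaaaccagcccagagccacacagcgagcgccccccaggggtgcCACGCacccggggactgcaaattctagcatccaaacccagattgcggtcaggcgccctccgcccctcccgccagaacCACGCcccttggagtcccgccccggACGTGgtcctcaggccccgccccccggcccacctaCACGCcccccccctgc
Hk2: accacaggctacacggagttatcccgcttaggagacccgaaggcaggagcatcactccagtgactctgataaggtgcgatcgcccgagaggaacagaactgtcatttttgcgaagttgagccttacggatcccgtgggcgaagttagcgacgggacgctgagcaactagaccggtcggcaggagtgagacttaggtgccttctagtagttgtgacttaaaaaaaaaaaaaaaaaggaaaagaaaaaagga
Ldha: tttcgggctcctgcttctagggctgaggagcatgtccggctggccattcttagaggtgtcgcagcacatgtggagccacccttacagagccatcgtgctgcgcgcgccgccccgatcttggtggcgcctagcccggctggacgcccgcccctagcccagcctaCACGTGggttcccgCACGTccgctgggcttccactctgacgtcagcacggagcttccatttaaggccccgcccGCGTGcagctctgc

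The Slc2a1 window held 1 ACGTG and 3 GCGTG, at 51 and at 153, 76 and 16 bases before the start, and the Ldha window held 3 ACGTG and 1 GCGTG. In Ldha, 2 of the 3 ACGTG matches are both strands of a single CACGTG at 87 bases before the start. The Hk2 window held neither motif. Among all 33469 promoter windows of this length, 16.6% held ACGTG, 25.9% GCGTG and 36.7% at least one of them. The GC box GGGCGG occurred 3 times in each of the Slc2a1 and Ldha windows and not in that of Hk2, and was present in 30.5% of all windows. The other matched genes held ACGTG or GCGTG in Gapdh (1 and 2 matches) and Eno1 (1 GCGTG in each of 2 start sites), and neither in Tpi1 or Pkm. Pgk1 was not matched. These matches describe letters only.

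In the alimentary limb, Slc2a1 and Hk2 were higher than in sham jejunum, and the lower enzymes were not called. Slc2a1 was 4.66-fold and Hk2 13.5-fold higher after RYGB, and the differences of the other 6 genes were between -0.57 and 0.63 on the log2 scale. Thus 2 of the 8 genes rose and 0 fell, where 4.45% of the 16146 IDs tested rose and 3.21% fell.

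Slc2a1 read 49.4, 62.9 and 77.6 CPM in RYGB_AL and 12.1, 12.3 and 16.4 CPM in Sham_JEJU. Every alimentary limb library lay above every jejunal one, as for 13.4% of all IDs tested, with means of 63.3 ± 14.1 and 13.6 ± 2.40 CPM (SD, n = 3 each). The log2 change was 2.22 (SE 0.20, edgeR adjusted p = 0.000226), the 7th smallest p among all IDs tested.

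Hk2 read 1235, 1278 and 1411 CPM in RYGB_AL and 69.0, 78.2 and 145 CPM in Sham_JEJU. The 3 alimentary limb libraries lay within 1.14-fold of each other, and the jejunal ones within 2.09-fold, far below them. The log2 change was 3.75 (SE 0.39, edgeR adjusted p = 0.000401), the 77th highest of the 16146. On the fold scale its 95% confidence interval ran from 7.45 to 24.3, and that of Slc2a1 from 3.45 to 6.28. Both calls held in all 10 alternative fits, which included DESeq2 and leaving out each library in turn.

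**Figure D1:**
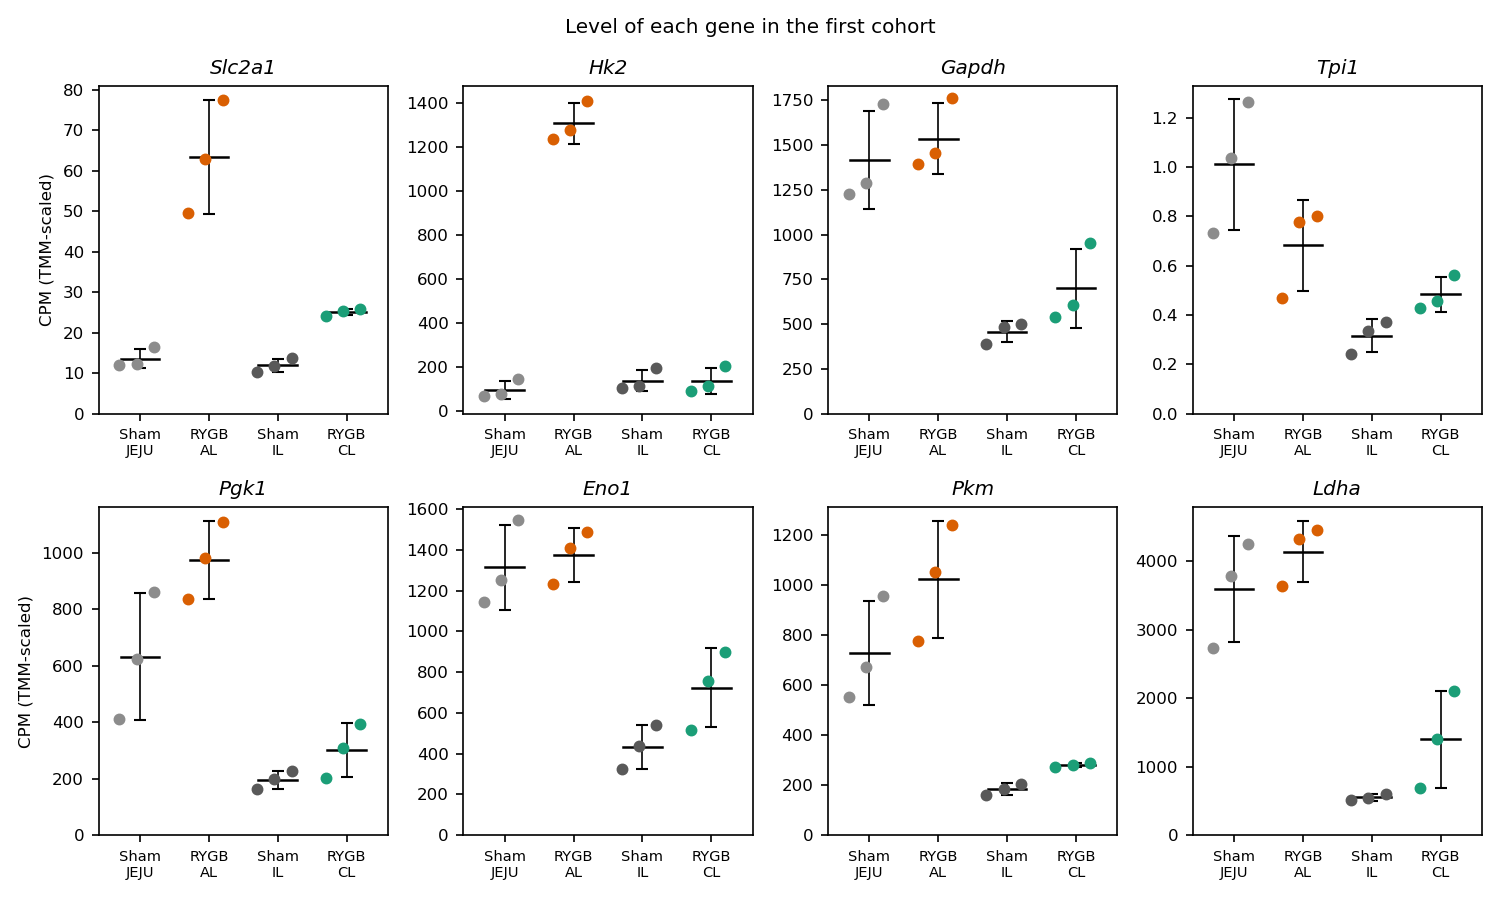
Level of each gene in the first cohort in CPM after TMM scaling (a separate linear y axis for each gene). Points are libraries, black lines group means and bars SD (n = 3). Slc2a1 and Hk2 are highest in RYGB_AL with no overlap, whereas the lower enzymes other than Tpi1 are high in both RYGB_AL and Sham_JEJU.

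The enzymes of the lower steps overlapped between the limb and sham jejunum. Gapdh, which oxidises glyceraldehyde 3-phosphate, read 1394, 1453 and 1762 CPM against 1229, 1289 and 1730 CPM (log2 change 0.12, SE 0.25). Pgk1, the first ATP-yielding kinase, read 835, 982 and 1110 CPM against 410, 625 and 861 CPM (0.63, SE 0.29). Eno1, the enolase, read 1231, 1407 and 1488 CPM against 1144, 1253 and 1547 CPM (0.07, SE 0.25).

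Pgk1 had the greatest log2 change of these 6 genes, and its ranges met where the highest jejunal library passed the lowest limb library. Pkm, pyruvate kinase, read 774, 1052 and 1236 CPM against 552, 671 and 955 CPM (0.49, SE 0.23). Ldha read 3634, 4328 and 4459 CPM against 2738, 3788 and 4248 CPM (0.21, SE 0.34). The edgeR adjusted p of Pgk1 was 0.233, of Pkm 0.239 and of Ldha 0.772. The 95% intervals of the log2 change reached from -0.01 to 1.26 for Pgk1, from -0.01 to 1.00 for Pkm and from -0.53 to 0.94 for Ldha, so an increase of the size seen for Slc2a1 lies outside all 3.

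Tpi1, triosephosphate isomerase, had very few counts on its ID: 7 to 48 per library in the first cohort and 24 to 89 in the OLE cohort before the libraries of number 13 were summed. The lowest count, 7, has an exact Poisson 95% interval of 2.81 to 14.4, which covers counting error only. How reads that also match near copies of the gene were counted is not given in the sources used here, so these counts may be only part of its reads. At this depth Tpi1 read 0.469, 0.777 and 0.800 CPM in RYGB_AL and 0.732, 1.04 and 1.26 CPM in Sham_JEJU, and was not called (log2 change -0.57, SE 0.40, edgeR adjusted p = 0.449).

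The ratio of counts within a library does not depend on scaling between libraries. Per 1000 Ldha counts there were 287 to 340 Hk2 counts in RYGB_AL and 16.2 to 38.2 in Sham_JEJU. For Slc2a1 the same ratio was 11.4 to 21.3 against 2.84 to 4.51. Neither ratio overlapped between these groups, and each two-sided exact permutation test gave p = 0.1, the smallest that 3 against 3 allows (0.15 adjusted over 9 tests).

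Per 1000 Gapdh counts there were 575 to 704 Pgk1 counts in the limb and 334 to 498 in sham jejunum (exact permutation p = 0.1, adjusted 0.15). Pgk1 thus stood somewhat higher relative to Gapdh in these limb libraries, although its own level was not called. The other ratios to 1000 Gapdh counts overlapped and were not tested. They were 845 to 1010 in the limb against 724 to 1200 in sham jejunum for Eno1. For Pkm they were 533 to 887 against 449 to 552, and for Ldha 2457 to 3199 against 2190 to 3297.

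**Figure D2:**
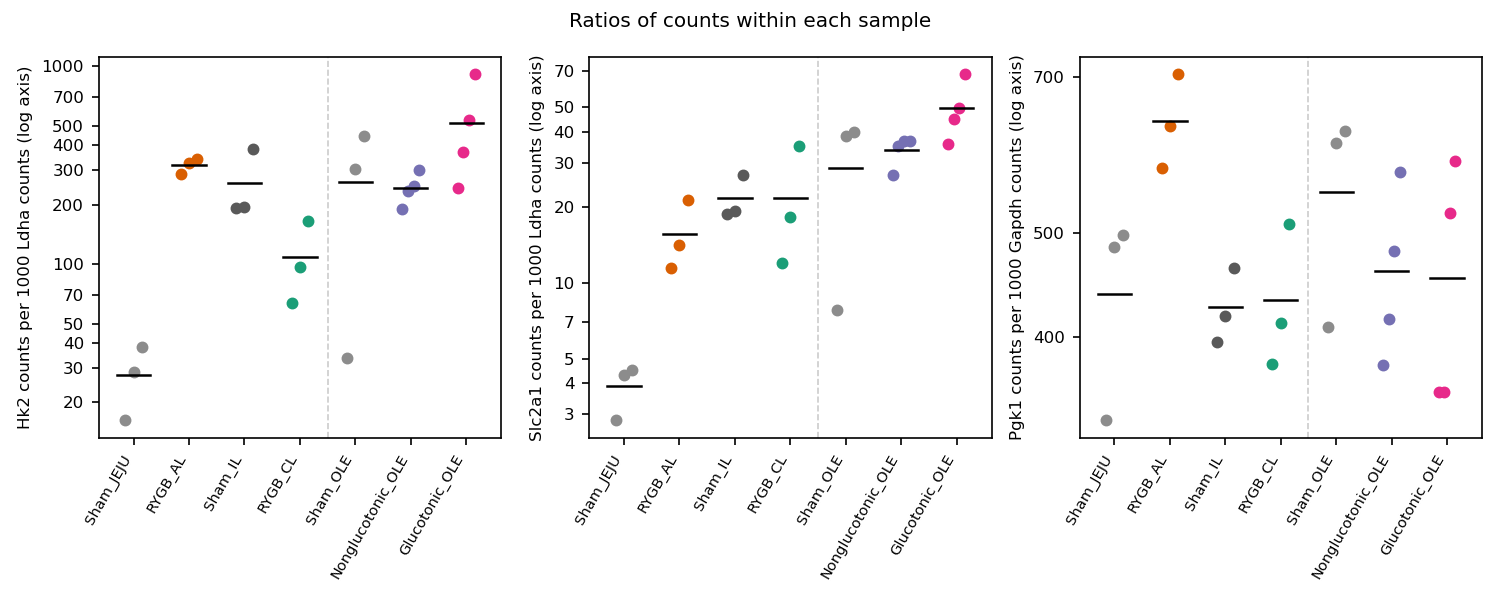
Counts of Hk2 and of Slc2a1 per 1000 Ldha counts and of Pgk1 per 1000 Gapdh counts in each sample (log y axes). Points are samples, lines group means, and the dashed line separates the cohorts; Sham_JEJU is lowest for both Ldha ratios among the first-cohort groups.

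In the common limb none of the 8 genes was called against sham ileum, in a comparison in which edgeR called 0 of 16146 IDs (percent called 0) in all. At an unadjusted p under 0.05 there were 1268 IDs (7.85%), among them 5 of these 8 genes, all higher in the common limb, and DESeq2 called 93 IDs. The ranges of 5 genes (Slc2a1, Gapdh, Tpi1, Pkm and Ldha) lay wholly above those of sham ileum, against 9.34% of all IDs tested. The median log2 difference of the 8 genes was 0.62, beside 0.05 over all IDs tested.

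Slc2a1 read 24.2, 25.3 and 25.8 CPM in RYGB_CL and 10.3, 11.7 and 13.6 CPM in Sham_IL. The common limb libraries were nearly equal and stood above all ileal ones. The log2 difference was 1.08 (SE 0.19), with an adjusted p of 0.294 from edgeR and of 0.00074 from DESeq2. The call for this gene therefore rests on the tool.

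Hk2 read 89.9, 113 and 203 CPM in RYGB_CL and 106, 116 and 193 CPM in Sham_IL. These ranges overlapped almost fully (log2 difference -0.03, SE 0.35, 95% interval -0.80 to 0.73). An Hk2 difference as large as in the alimentary limb is outside that interval.

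Ldha read 687, 1409 and 2103 CPM in RYGB_CL and 506, 548 and 604 CPM in Sham_IL. The common limb libraries spread over 3.06-fold, and the lowest of them lay just above the ileal range. The log2 difference was 1.34 (SE 0.34, edgeR adjusted p = 0.458). DESeq2 gave an adjusted p of 0.0161. Leaving out each of the 6 libraries in turn moved the log2 difference between 0.92 and 1.67. Of these fits only that without the lowest common limb library, RYGB_CL 2-3, called Ldha (1.67, edgeR adjusted p = 0.0314).

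Gapdh read 538, 605 and 953 CPM in the common limb against 390, 486 and 499 CPM in ileum. Pkm read 272, 281 and 288 CPM against 159, 184 and 205 CPM. Eno1 read 516, 755 and 901 CPM against 323, 439 and 540 CPM. Gapdh and Pkm did not overlap between the groups, and Eno1 did by a single pair of libraries.

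Pgk1 read 203, 308 and 393 CPM against 163, 198 and 225 CPM, and Tpi1 0.430, 0.458 and 0.563 CPM against 0.240, 0.334 and 0.370 CPM. The log2 differences of these 5 enzymes were close together, from 0.61 for Gapdh and Tpi1 through 0.62 for Pkm and 0.63 for Pgk1 to 0.74 for Eno1. Their edgeR adjusted p ran from 0.512 to 0.721.

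The ratios to Ldha did not follow the alimentary limb. Per 1000 Ldha counts there were 63.8 to 165 Hk2 counts in RYGB_CL and 191 to 382 in Sham_IL, 0.415-fold and with no overlap. This ratio went in the opposite direction to the alimentary limb (exact permutation p = 0.1, the smallest possible, adjusted 0.15). Hk2 itself was nearly equal in the 2 groups (log2 difference -0.03), whereas Ldha was higher in RYGB_CL (1.34, not called by edgeR). Slc2a1 counts per 1000 Ldha counts were 12.03 to 35.2 in RYGB_CL and 18.9 to 27.0 in Sham_IL and overlapped (0.924-fold, exact permutation p = 0.8, adjusted 1.00). The Pgk1 to Gapdh ratio also overlapped (1.01-fold, exact permutation p = 1.00).

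**Figure D3:**
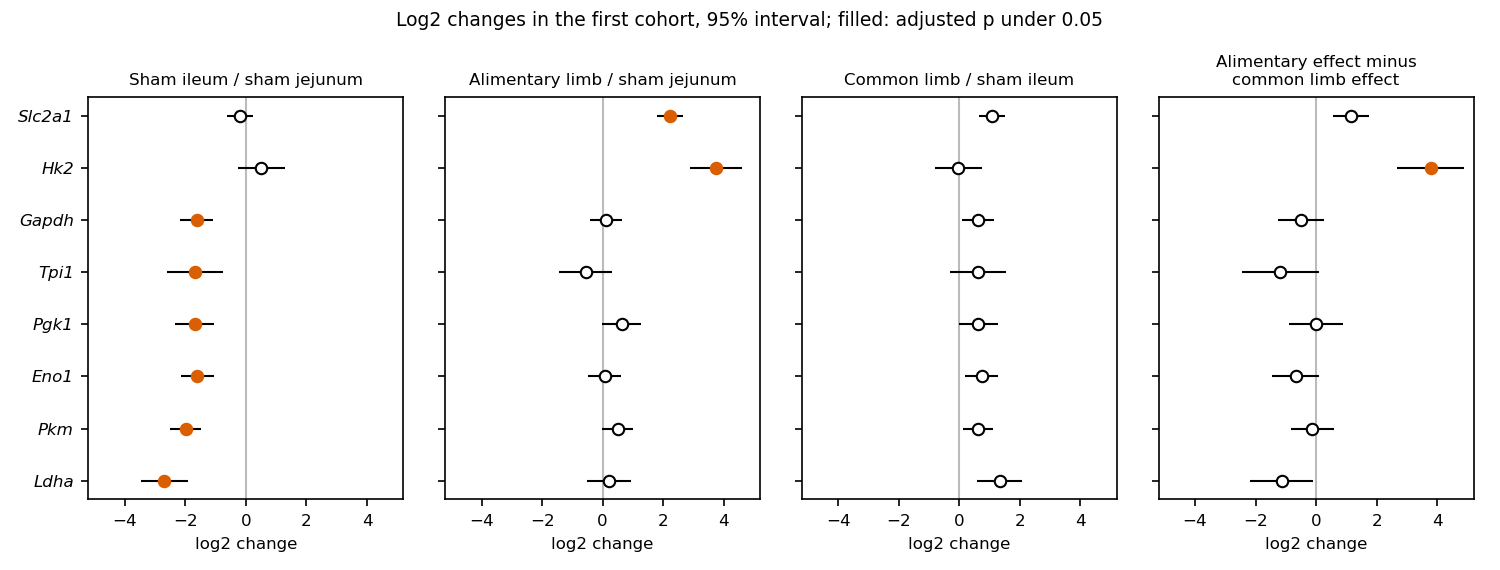
Log2 change of each gene (y axis) with its 95% interval (bars) in 3 comparisons of the first cohort and in the difference of the limb effects; filled points have an edgeR adjusted p under 0.05. Slc2a1 and Hk2 stand to the right in the alimentary limb comparison (2.22 and 3.75), and the 6 lower enzymes to the left in sham ileum against sham jejunum (-1.60 to -2.70).

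The Hk2 difference from sham tissue was not the same in the limbs. Whether each limb matched its sham segment in gut position was not tested. The difference of the log2 changes, alimentary limb minus common limb, was 3.78 (SE 0.51, edgeR adjusted p = 0.0145). Hk2 was the only 1 of the 8 genes called in this test, which called 0.607% of all IDs tested. For Slc2a1 the difference was 1.14 (SE 0.27), with an adjusted p of 0.0913 from edgeR and 0.0103 from DESeq2. For Ldha it was -1.14 (SE 0.48, edgeR adjusted p = 0.344), and for Pgk1 0.00 (SE 0.41).

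Between sham ileum and sham jejunum the lower enzymes differed, and Slc2a1 and Hk2 did not pass the test. All 6 lower enzymes fell in ileum and none of the 8 genes rose, where 6.47% of all IDs tested fell and 2.75% rose. The fold differences ran from 3.03 for Eno1 to 6.50 for Ldha. The median over the 8 genes was -1.65 on the log2 scale, beside 0.03 over all IDs.

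Ldha had the greatest difference, from 2738 to 4248 CPM in jejunum and from 506 to 604 CPM in ileum, and its log2 change was -2.70 (SE 0.36, edgeR adjusted p = 0.00424). Pkm followed with -1.99 (SE 0.24, edgeR adjusted p = 0.00424). Pgk1 changed by -1.69, Gapdh by -1.63 and Eno1 by -1.60, with edgeR adjusted p of 0.00919, 0.00613 and 0.0066. Every ileal library lay below every jejunal library for all 6 enzymes, against 17.8% of all IDs tested. Without Sham_IL 15-30 the call of Pgk1 was lost (edgeR adjusted p = 0.0511). Tpi1 changed by -1.68 (edgeR adjusted p = 0.0325), on 7 to 48 counts per library, and its call was kept only in the fit without Sham_JEJU 14-28, of the 6 fits that each left out 1 library of either group (edgeR adjusted p up to 0.138). It was also lost with only these groups in the fit (edgeR adjusted p = 0.0595).

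Slc2a1 stood at 13.6 ± 2.40 CPM in jejunum and 11.9 ± 1.66 CPM in ileum (SD, n = 3 each). The ranges overlapped, and the log2 difference was -0.19 (SE 0.19, 95% interval -0.61 to 0.22). Hk2 stood at 97.2 ± 41.2 and 138 ± 47.7 CPM, also overlapping (0.51, SE 0.35, edgeR adjusted p = 0.361). In ileum there were 191 to 382 Hk2 counts per 1000 Ldha counts, against 16.2 to 38.2 in jejunum. For Slc2a1 there were 18.9 to 27.0 against 2.84 to 4.51 (exact permutation p = 0.1 for each ratio, the smallest possible, adjusted 0.15). The Ldha level that both ratios divide by was 6.50-fold lower in ileum.

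After bypass, 7 of the 8 genes were lower in the common limb than in the alimentary limb, against 5.17% of all IDs tested that fell. Hk2 fell by 3.27 on the log2 scale, the most of the 8 (SE 0.38, edgeR adjusted p = 0.00105), which is 9.67-fold lower. Slc2a1 fell by 1.34 (SE 0.19, edgeR adjusted p = 0.00334), and the log2 changes of the others were -1.86 for Pkm, -1.69 for Pgk1, -1.56 for Ldha, -1.14 for Gapdh and -0.93 for Eno1. Tpi1 was not called (-0.50, SE 0.41).

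The ranges of the 7 called genes did not overlap between the limbs, against 16.9% of all IDs tested that lay wholly lower. This comparison uses the same limb libraries as those against sham tissue, so the values stand side by side and are not separate evidence. The calls of Gapdh, Eno1 and Ldha were lost when the fit held only these 2 groups (edgeR adjusted p 0.0683, 0.0852 and 0.0731). Leaving out 1 library also ended calls: Eno1 was kept only without RYGB_CL 15-29, Gapdh only without RYGB_AL 2-3 or RYGB_CL 15-29, and Ldha was lost without RYGB_AL 2-3 or RYGB_CL 1-1 (highest edgeR adjusted p 0.127, 0.067 and 0.0627).

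The order of the first-cohort groups thus differed by gene. Slc2a1 was ordered RYGB_AL, RYGB_CL, Sham_JEJU and Sham_IL, with no overlap between the first 3 neighbours and overlap between the sham groups. Hk2 was highest in RYGB_AL, and the other 3 groups overlapped. The 5 enzymes Gapdh, Pgk1, Eno1, Pkm and Ldha had RYGB_AL first, then Sham_JEJU, then RYGB_CL, and Sham_IL last. Together the 8 genes held 0.863 to 0.985% of all counts in RYGB_AL, 0.590 to 0.830% in Sham_JEJU, 0.271 to 0.499% in RYGB_CL and 0.215 to 0.233% in Sham_IL.

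Over the 12 libraries, the ID most like Slc2a1 by Pearson correlation of log2 CPM, among 10942 IDs with a mean of at least 5 CPM, was ENSRNOG00000014004 (r = 0.967). Its level was 55.9 ± 11.2 CPM in RYGB_AL and 23.8 ± 3.43 CPM in Sham_JEJU (SD, n = 3 each). The ID most like Hk2 was ENSRNOG00000006570 (r = 0.979), at 145 ± 12.5 CPM in RYGB_AL and 39.9 ± 7.97 CPM in Sham_JEJU. Hk2 itself ranked 110th for likeness to Slc2a1 (r = 0.884). These correlations describe 4 groups of libraries that share their surgery and segment.

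In the OLE cohort the library labelled Sham_OLE 4 stood apart from both other sham libraries. Against the mean of Sham_OLE 22 and 23 it was 5.80-fold for Ldha, 3.41-fold for Eno1, 3.20-fold for Gapdh, 2.77-fold for Tpi1, 2.12-fold for Pgk1 and 1.99-fold for Pkm. For Slc2a1 it was 1.16-fold and for Hk2 0.532-fold. The corresponding jejunum-to-ileum folds of the first cohort's sham rats were 6.50, 3.03, 3.09, 3.20, 3.24 and 3.98 for those 6 enzymes, and 1.14 and 0.703 for Slc2a1 and Hk2. Whether this library differs in gut position was not tested, and the log2 differences from sham below are given with and without it.

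Glucotonic sections showed no called difference from sham in any of the 8 genes, where edgeR called 5 of 14495 IDs (0.0345%). At an unadjusted p under 0.05 there were 2380 IDs (16.4%) and 0 of these genes, and DESeq2 called 523 IDs. The number of IDs called hung on single samples: 103 without Sham_OLE 4, 8 without Glucotonic_OLE 19, 2 without Sham_OLE 22, and 0 without Sham_OLE 23 or without Glucotonic_OLE 13, 16 or 18. It was 1862 without both sections of number 19. None of the 8 genes was called in any of these fits. Hk2 and Slc2a1 were on average higher in glucotonic sections but overlapped with sham. All 3 Sham_OLE libraries were sequenced in lane 7, and of the RYGB sections only number 13 was also in that lane. Lane and surgery can thus be told apart only through number 13. Its non-glucotonic libraries carry different label endings, so lane and any difference between sections cannot be told apart in them. The counts of its glucotonic libraries in lanes 4 and 7 differed by a chi-square per degree of freedom of 35.6. The lane 4 library differed less from numbers 18 (16.3) and 16 (26.0), also in lane 4. For the non-glucotonic libraries of number 13 it was 30.0, and 61.9 for the lane 4 library against number 16 in lane 4. The part of lane in this was not tested.

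Hk2 read 47.3, 71.4, 97.3 and 218 CPM in Glucotonic_OLE and 32.9, 57.3 and 66.3 CPM in Sham_OLE. The highest value, of number 19, stood well above the rest, and the lowest lay inside the sham range. The log2 difference was 1.06 (SE 0.49, edgeR adjusted p = 0.31), 0.80 without Sham_OLE 4 and 0.49 without Glucotonic_OLE 19. With the libraries of number 13 kept apart it was 0.91, and 0.29 with lane 7 as a term added to that fit.

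Slc2a1 read 6.97, 8.18, 9.60 and 16.2 CPM in Glucotonic_OLE and 5.94, 7.31 and 7.70 CPM in Sham_OLE. Number 19 was again highest, and number 13 lay inside the sham range (log2 difference 0.55, SE 0.33, edgeR adjusted p = 0.425). The difference was 0.61 without Sham_OLE 4 and 0.26 without Glucotonic_OLE 19. With the libraries of number 13 kept apart it was 0.47, and 0.17 with the lane term added.

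**Figure D4:**
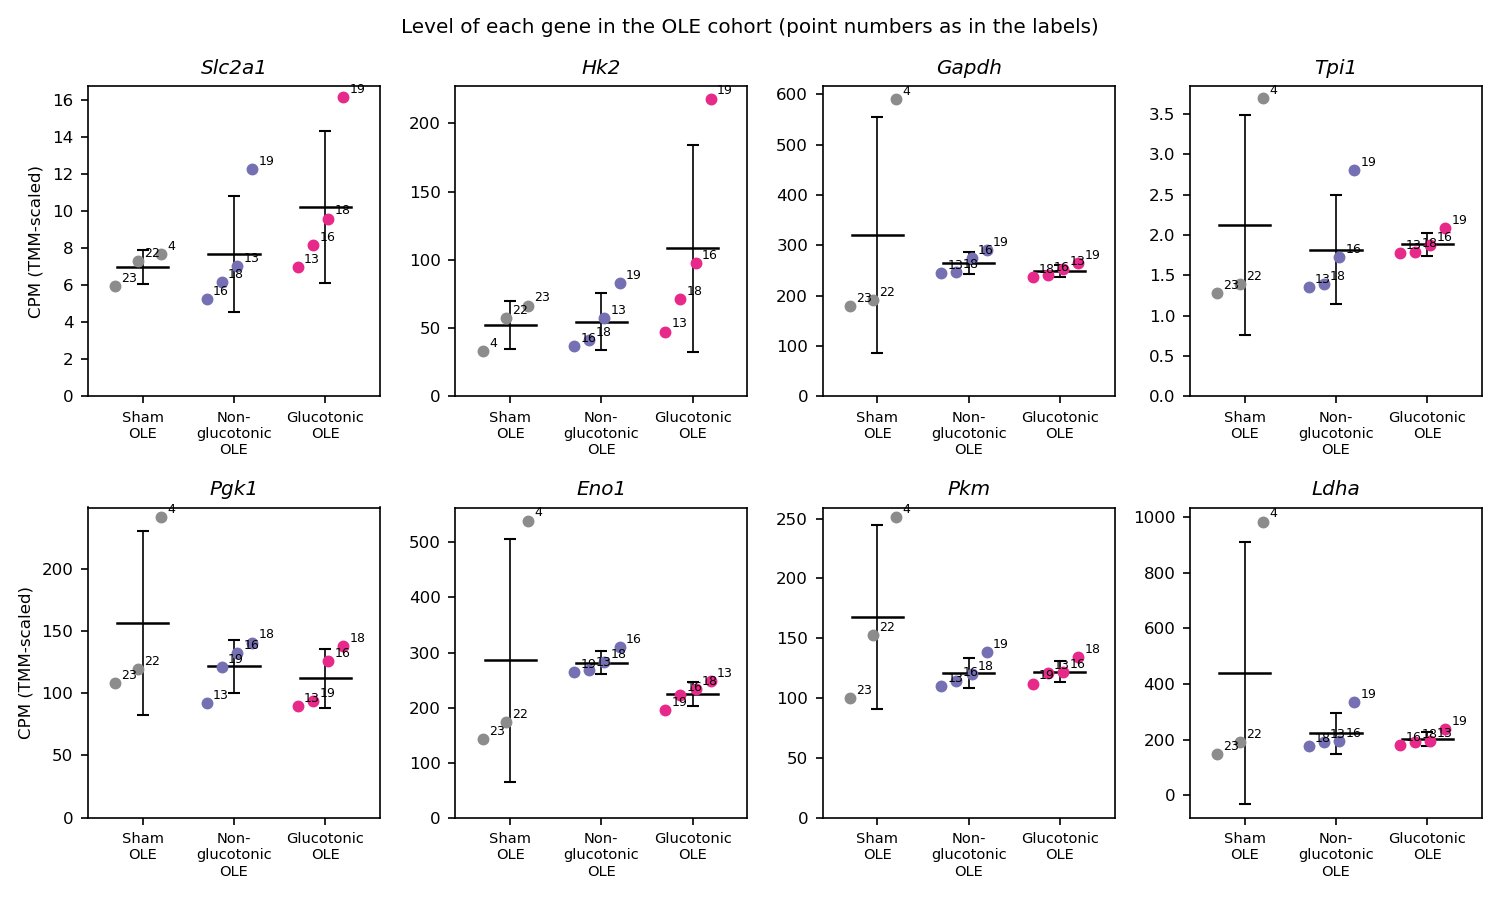
Level of each gene in the OLE cohort in CPM after TMM scaling (a separate linear y axis for each gene). Points are samples with their label numbers, black lines group means and bars SD (n = 3 or 4). Sham_OLE 4 is above the other sham libraries for the 6 lower enzymes, and number 19 is highest within both RYGB groups for Slc2a1 and Hk2.

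Among the lower enzymes the direction against sham hung on Sham_OLE 4 for Gapdh, Tpi1, Eno1 and Ldha. Ldha read 182, 192, 195 and 239 CPM in Glucotonic_OLE and 149, 190 and 984 CPM in Sham_OLE. Its log2 difference was -1.13 (SE 0.54, edgeR adjusted p = 0.322) with that library and 0.24 without it.

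Gapdh read 236, 241, 252 and 264 CPM in Glucotonic_OLE and 179, 191 and 591 CPM in Sham_OLE, and Eno1 195, 222, 233 and 248 CPM against 143, 174 and 540 CPM. Both sets of glucotonic values lay between Sham_OLE 22 and 23 on the lower side and Sham_OLE 4 on the upper. The log2 difference turned from -0.37 to 0.41 for Gapdh, from -0.35 to 0.49 for Eno1 and from -0.18 to 0.48 for Tpi1 when Sham_OLE 4 was left out. Pgk1 went from -0.48 to -0.04 and Pkm from -0.46 to -0.06.

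**Figure D5:**
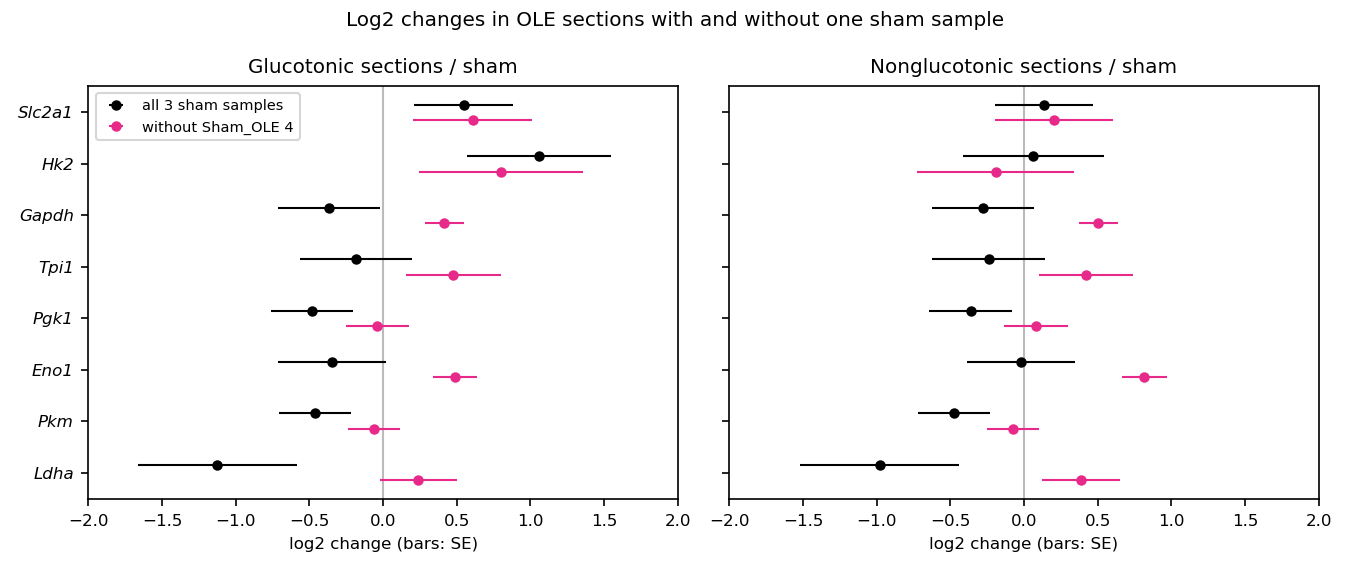
Log2 difference from sham of each gene (SE as bars) in glucotonic and non-glucotonic sections, with all 3 sham samples and without Sham_OLE 4. The lower enzymes shift to the right when that library is left out, and Gapdh, Tpi1, Eno1 and Ldha cross 0 in both panels.

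Non-glucotonic sections had none of the 8 genes called against sham, and edgeR called 0 of 14495 IDs (percent called 0). At an unadjusted p under 0.05 there were 936 IDs (6.46%) and 0 of these genes, and DESeq2 called 27 IDs. Without Sham_OLE 4 edgeR called 3 IDs and none of these genes. Hk2 read 36.7, 41.1, 57.3 and 82.8 CPM and Slc2a1 5.24, 6.16, 7.04 and 12.3 CPM in Nonglucotonic_OLE. Both ranges took in most of the sham values, and the log2 differences were 0.06 (SE 0.48) and 0.14 (SE 0.33). Without Sham_OLE 4 they were -0.19 and 0.20, and without Nonglucotonic_OLE 19 they were -0.21 and -0.18.

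The enzyme differences of the non-glucotonic sections depended on Sham_OLE 4 as well. Ldha read 176, 192, 194 and 334 CPM (log2 difference -0.98, SE 0.54, and 0.39 without Sham_OLE 4). Eno1 went from -0.02 to 0.82, Gapdh from -0.28 to 0.50, Tpi1 from -0.24 to 0.42 and Pgk1 from -0.36 to 0.08. Pkm went from -0.48 to -0.08.

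Glucotonic against non-glucotonic sections is a comparison within operated rats. EdgeR called 0 of 14495 IDs (percent called 0) and none of the 8 genes. There were 388 IDs (2.68%) at an unadjusted p under 0.05, Hk2 among them, and DESeq2 called 3 IDs. The fit of these 2 groups with the number as a block called 25 of 14004 IDs, against 0 for the same groups with no block, 10 higher and 15 lower, and again 0 of the 8 genes.

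Hk2 was higher in the glucotonic section for numbers 16, 18 and 19, by 2.65-fold, 1.73-fold and 2.64-fold, and 0.825-fold for number 13. The log2 difference was 0.99 (SE 0.45, unadjusted p = 0.0475, edgeR adjusted p = 1.00) without the block and 0.83 (SE 0.33, edgeR adjusted p = 0.408) with it. Without the block, leaving out 1 sample moved it between 0.40 (without Glucotonic_OLE 19) and 1.27 (without Nonglucotonic_OLE 19). Slc2a1 was 1.56-fold, 1.56-fold and 1.32-fold in the glucotonic section for 16, 18 and 19, and 0.989-fold for 13. Its log2 difference was 0.41 (SE 0.30) without the block and 0.39 (SE 0.13, edgeR adjusted p = 0.259) with it. Leaving out the same samples moved it to 0.0994 and 0.72 without the block.

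Within number 13, Hk2 read 49.5 and 47.2 CPM in the glucotonic libraries and 70.9 and 48.3 CPM in the non-glucotonic ones, in lanes 4 and 7. Neither lane had a higher glucotonic value. The non-glucotonic libraries carry different label endings in these lanes and may not be the same section.

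Eno1 was lower in every glucotonic than in every non-glucotonic sample, 195 to 248 CPM against 265 to 310 CPM, a pattern shared by 1.32% of all IDs tested, and was not called (log2 difference -0.33, SE 0.34, edgeR adjusted p = 1.00). Gapdh, Pgk1, Pkm, Tpi1 and Ldha overlapped, with log2 differences between -0.15 and 0.06.

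With all 25 libraries scaled together, as a description across cohorts that were never tested against each other, mean Slc2a1 was 45.8 CPM in RYGB_AL, 18.3 in RYGB_CL, 14.7 in Glucotonic_OLE, 11.0 in Nonglucotonic_OLE, 9.87 in Sham_JEJU, 9.75 in Sham_OLE and 8.50 in Sham_IL. Hk2 on the same scale was 948 CPM in RYGB_AL and at most 155 CPM in every other group. Ldha was at 2999 CPM in RYGB_AL and 2608 CPM in Sham_JEJU and 290.0 to 1016 CPM elsewhere. On this scale the alimentary limb led for Slc2a1 and Hk2, and for Ldha it was close to sham jejunum.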

How the data were processed

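RNA from rat small intestine was made into stranded, ribosomal RNA-depleted libraries, per the labels' protocols. The submitters' processing notes name FastQC, STAR and rat build rn6. For the counter, the annotation release and the rule for reads matching several places, nothing is stated in the labels or notes used. The authors deposited whole-number counts per Ensembl ID for 25 libraries, not normalized, per the values in the table. The 8 IDs were matched directly. Members, lists and tests were chosen with earlier results of these data known. Of the 32883 IDs, 0 could be paired with a symbol through the reference tables used here, so the lists of other pathway genes and of cell type markers were not applied, and the tissue labels were not checked against markers.

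The cohorts were fitted separately in R 4.3.3 with edgeR 4.0.16 (filterByExpr by group with a minimum count of 10, TMM scaling, robust quasi-likelihood F test, Benjamini-Hochberg adjustment over all IDs tested). DESeq2 1.42.0 was an alternative, and limma 3.58.1 was loaded with edgeR. The genes named are the 8 members and, by the highest Pearson r, 1 ID for each of Slc2a1 and Hk2. Scripts were tested on simulated data. There edgeR recovered 17% of 2-fold changes for each limb against sham and 3% for the difference between the limbs. Of 4-fold changes it recovered 72% for the alimentary limb, 76% for the common limb and 43% for the difference. A gene that was not called may thus still differ by about 2-fold. No pair of libraries of a group held the same counts within counting error: the lowest chi-square per degree of freedom was 16.3, for Glucotonic_OLE 13 and 18. This measure does not show which libraries come from the same sample. The glucotonic libraries of number 13 gave 35.6.

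Numbers 13, 16, 18 and 19 of the OLE cohort were taken to pair the RYGB sections, because the deviations from the group means correlated within a number (r = 0.467, 0.43, 0.341 and 0.811). The highest r with another number was 0.412, 0.221, 0.444 and -0.275, above its own number for 18. Shared numbers were not taken to pair the first cohort, where r within a number ran from -0.0481 to 0.275. The highest r with another number ran there from -0.013 to 0.155. It was below that of the own number for 15-29, 2-3 and 15-30, and above it for 1-1, 14-28 and 8-15. With 3 samples in each group this check cannot exclude pairing. Alternatives changed the tool, scaling, filter, samples in the fit, block, lane and treatment of number 13, and left out each library in turn.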

Additional observations from a re-analysis of the deposited data

Results flagged for a closer look

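Ldha in Nonglucotonic_OLE 19 read 334 CPM, far above the other 3 samples of its group, of which the next read 194 CPM. It was the only such sample among 16 gene and group combinations with 4 samples, and chance alone marks about 1 in 20.

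Hk2 differed from sham tissue by more in the alimentary limb than in the common limb. The difference between these log2 changes was 3.78 (SE 0.51, edgeR adjusted p = 0.0145).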

How the results depend on the processing

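The 16 called log2 changes were recomputed 179 times: 152 kept their direction and call, 27 kept the direction without the call and 0 turned. The 48 values that were not called were recomputed 637 times: 590 kept direction, 4 became called and 43 changed sign. The causes of these shifts were not tested, beyond the fewer samples of the fits without a library.

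DESeq2 called 2029 IDs for RYGB_AL against Sham_JEJU, 93 for RYGB_CL against Sham_IL (2 of the 8 genes, Slc2a1 and Ldha), 2639 for Sham_IL against Sham_JEJU, 2771 for RYGB_CL against RYGB_AL and 568 for the difference between the limbs (2 of the 8 genes, Slc2a1 and Hk2). In the OLE cohort it called 523, 27 and 3 IDs, in the order glucotonic against sham, non-glucotonic against sham and glucotonic against non-glucotonic. With no filter on low counts, 1 ID was called for RYGB_CL against Sham_IL and 28 for glucotonic sections against sham. With only the groups compared in the fit, RYGB_CL against RYGB_AL gave 432 IDs and 4 of the 8 genes, and glucotonic against sham gave 0 IDs. Glucotonic against sham gave 31 IDs with the libraries of number 13 kept apart, 0 with lane 7 as a term as well, and 1862 without both sections of number 19, which gave 157 IDs for non-glucotonic against sham.

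The replicate block was fitted with only the groups compared, except for the difference between the limbs. It gave 690 IDs for Sham_IL against Sham_JEJU, 190 for RYGB_CL against RYGB_AL (3 of the 8 genes: Slc2a1, Hk2 and Pkm), 69 for the difference between the limbs and 25 for glucotonic against non-glucotonic sections. Tpi1 in the first of these comparisons (adjusted p = 0.117 with the block) and Gapdh, Eno1 and Ldha in the second were already not called with only these groups and no block, so the replicate block itself ended only the call of Pgk1 (adjusted p = 0.0579). In the first cohort the samples share only a number.

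Leaving out 1 library at a time gave 484 to 1212 IDs for RYGB_AL against Sham_JEJU (2 of the 8 genes each time), 0 to 56 for RYGB_CL against Sham_IL (0 to 1 genes, the call being Ldha without RYGB_CL 2-3), 235 to 1580 for Sham_IL against Sham_JEJU (4 to 6 genes), 396 to 2237 for RYGB_CL against RYGB_AL (4 to 7 genes) and 8 to 127 for the difference between the limbs (1 gene, Hk2). In the OLE cohort it gave 0 to 103, 0 to 3 and 0 to 1 IDs and 0 of the 8 genes.

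Some log2 values that were not called changed sign. For the difference between the limbs, Pgk1 was -0.005 with DESeq2 and with its size factors and -0.0044 with no filter, and ran from -0.24 to 0.29 with a library left out, as Pkm did from -0.31 to 0.12. Eno1 ran from -0.0309 to 0.18 for RYGB_AL against Sham_JEJU, and Hk2 from -0.44 to 0.29 for RYGB_CL against Sham_IL. For non-glucotonic against sham, Eno1 was 0.0091 with no filter and 0.0154 without number 19, Slc2a1 -0.15 with the lane term and number 13 kept apart and -0.18 without number 19, and Hk2 -0.44 and -0.21 in the same order. With a library left out, the same comparison ran from -0.33 to 0.82 for Eno1, -0.18 to 0.31 for Slc2a1, -0.21 to 0.28 for Hk2, -0.55 to 0.50 for Gapdh, -0.53 to 0.42 for Tpi1, -0.56 to 0.0817 for Pgk1 and -1.37 to 0.39 for Ldha. Glucotonic against sham ran from -0.64 to 0.41 for Gapdh, -0.43 to 0.48 for Tpi1, -0.65 to 0.49 for Eno1 and -1.52 to 0.24 for Ldha. Glucotonic against non-glucotonic ran from -0.0302 to 0.0892 for Pkm, -0.0738 to 0.34 for Tpi1 and -0.25 to 0.11 for Ldha, which was 0.0174 without number 19.

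Depth limits Tpi1, with 7 to 89 counts per library, and the OLE cohort, where 2 IDs took 44.6 to 65.9% of counts.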
